A study of Mus musculus with 2 samples.

Results

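Rab GTPases are small proteins that switch between a GDP-bound and a GTP-bound form and mark the membranes on which they sit. Guanine nucleotide exchange factors (GEFs) load them with GTP, GTPase-activating proteins (GAPs) end the active state, and effectors such as tethers and myosin motors bind the active form to move, dock or fuse vesicles. In intestinal epithelium they carry brush-border proteins to the apical surface, sort endocytosed cargo to recycling or lysosomes, and serve the regulated secretion of goblet and enteroendocrine cells. The members described here are all columns of the expression table named Rab, then a number and at most a further letter and digit. This rule found 54 of 25663 genes, all of them protein-coding, and took no account of their levels. By textbook role, 10 were placed with the early endosome, 12 with recycling and apical delivery, 7 with the late endosome and lysosome, 11 with the endoplasmic reticulum and Golgi, 8 with secretory granules, and 6 with the cilium or other places.

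The study profiled sorted small-intestinal epithelial cells of mouse embryos at E18.5 by droplet single-cell RNA sequencing of transcript 3' ends. There were 2 samples, Control and Tet3KO, each 1 library from the pooled cells of 2 embryos. The knockout is a germline deletion of Tet3 exon 5, which brings a stop codon into exon 6, made in C57BL6/J x C3H/HeJ hybrid stem cells and then backcrossed to C57BL6/JRccHsd for at least 5 generations. The deletion is therefore in every cell type of the knockout embryos, and the cells were fixed in 90% methanol before capture. The table holds both samples, and its barcodes end in -0 (set 0, 5933 cells) or -1 (set 1, 5938 cells). Neither the labels nor the table say which ending is which genotype, so the sets are described side by side and no comparison of genotypes is made.

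A level below is the mean over cells of the deposited value per 10000 (CP10K), in which every cell sums to 10000. Of the barcodes, 818 occurred in both sets, which is 13.8% of set 1, and these cells were left out of set 1, which leaves 5120 cells there and 11053 in all. Unique molecular identifiers (UMIs), recovered from the steps of each cell's values, had a median of 23657 per cell in set 0 and 22374 in set 1. The epithelial genes Epcam (13.3 CP10K in set 0, 12.9 in set 1) and Cdh1 (0.888 and 0.846) were present in both. Tet3 itself stood at 0.333 in set 0 and 0.218 in set 1, a level that assigns no genotype. Cells of 1 pooled sample are not replicates, so no test was run, and the 95% intervals given cover counting error only.

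Cells were grouped by 5 readouts. Fabp1, a fatty acid-binding protein of mature enterocytes, split them at 40 and 100 CP10K. Fabp6, a bile acid-binding protein of the distal small intestine, split them at 10 and 50. The sum of Mki67 and Top2a, genes of dividing cells, split them into 0, up to 2, and above 2. The sum of Muc2, Fcgbp and Spink4, goblet cell genes, was cut at 10, and the sum of Chga and Chgb, chromogranins of enteroendocrine granules, at 3. A gene is called higher or lower where the high group differed from the low group by at least 2-fold the same way in both sets, among genes with a level of at least 0.1 in 1 or both groups. Log2 ratios have 0.01 added to both levels, which makes the changes of low genes look smaller than they were.

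Of the 54 members, 41 reached the minimum in 1 or more of the 5 groupings and 15 of these were called in 1 or more. Of all 10178 genes that reached the minimum, 39.5% were called, so the family as a whole was called about as often as other genes. Promoters of some members called in a grouping are shown first. Those of other called members, such as Rab30 and Rab27b, are not shown. RefSeq promoter windows on GRCm38.p6, from 250 bases before to 50 after a transcript start, matched 45 members with 57 windows. CANNTG, the E-box core bound by basic helix-loop-helix factors, some of which act in secretory lineages, is in capitals in the windows of Rab15 (chr12:76822475-76822774, minus strand, the first of its 4 windows) and Rab3c (chr13:110280157-110280456, minus strand).
Rab15: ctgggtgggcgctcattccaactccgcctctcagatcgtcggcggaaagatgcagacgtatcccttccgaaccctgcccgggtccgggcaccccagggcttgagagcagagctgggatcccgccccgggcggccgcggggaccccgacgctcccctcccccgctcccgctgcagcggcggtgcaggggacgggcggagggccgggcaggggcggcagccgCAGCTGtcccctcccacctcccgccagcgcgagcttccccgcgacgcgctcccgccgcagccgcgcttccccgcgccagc
Rab3c: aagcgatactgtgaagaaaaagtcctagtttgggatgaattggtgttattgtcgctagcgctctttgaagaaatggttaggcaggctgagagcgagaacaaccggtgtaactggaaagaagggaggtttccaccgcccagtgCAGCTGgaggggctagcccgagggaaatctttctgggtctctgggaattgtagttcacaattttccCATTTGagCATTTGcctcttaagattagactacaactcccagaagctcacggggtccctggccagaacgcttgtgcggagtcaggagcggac
The Rab15 window holds 1 match and the Rab3c window holds 3. A match was found in 72.3% of all 32851 windows and in 38 of the 57 Rab windows, and 17.6% of all windows hold 3 or more. The window of Rab3d (chr9:21918134-21918433, minus strand) holds none. The motif reads the same on both strands.

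TTTAT, the core of the motif of caudal-type homeobox factors of the intestine, searched on both strands, is in capitals in the windows of Rab42 (chr4:132303307-132303606, minus strand) and Rab8b (chr9:66919656-66919955, minus strand), both lower in dividing cells.
Rab42: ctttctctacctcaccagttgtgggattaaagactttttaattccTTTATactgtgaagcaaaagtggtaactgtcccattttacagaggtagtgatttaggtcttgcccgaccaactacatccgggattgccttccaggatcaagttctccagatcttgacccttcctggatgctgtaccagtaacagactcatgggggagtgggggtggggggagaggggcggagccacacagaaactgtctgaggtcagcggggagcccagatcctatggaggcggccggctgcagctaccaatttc
Rab8b: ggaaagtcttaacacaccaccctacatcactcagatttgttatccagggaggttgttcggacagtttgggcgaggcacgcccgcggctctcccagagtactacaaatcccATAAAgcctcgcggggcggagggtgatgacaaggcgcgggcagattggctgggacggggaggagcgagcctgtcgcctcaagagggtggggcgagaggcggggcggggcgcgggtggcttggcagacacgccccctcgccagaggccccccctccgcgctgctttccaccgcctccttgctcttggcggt
Each holds 1 match, which reads ATAAA on the printed strand of Rab8b. This motif was in 40.0% of all windows and in 13 of the 57 Rab windows. Letters of this kind are a description of the window, not a binding site, and no match of one motif overlapped a match of the other in these windows.

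Over all cells, 11 members had a mean of the set levels of at least 1 CP10K, 22 lay between 0.1 and 1, and 21 lay below 0.1, of which 8 were below 0.01. The values come from 3' tags and are not divided by transcript length. Rab11a, which drives the apical recycling endosome, had the highest level, 4.29 in set 0 and 2.98 in set 1. Rab1a, of transport from the endoplasmic reticulum to the Golgi, followed at 2.38 and 2.36. Rab25, the epithelial relative of Rab11a, was at 2.06 and 2.57. These leading members were found in nearly every cell: Rab25 had a UMI in 97.5% of cells and Rab11a in 96.6%.

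The next members were also general carriers. Rab14, between endosomes and Golgi, was at 2.19 and 2.09, and Rab2a, of the early secretory pathway, at 1.85 and 1.89. Rab24, linked to autophagy, stood at 1.93 and 1.75, and Rab5c, which drives early endosome fusion, at 1.98 and 1.55. Rab8a, of apical delivery, was at 1.47 and 1.38. Rab7, which takes late endosomes to lysosomes, was at 1.40 and 1.23, and Rab9, which returns cargo from late endosomes to the Golgi, at 1.01 and 1.18. The lowest member was Rab3b, of neuronal and endocrine granules, with 18 UMIs in all 11053 cells. Several exons overlap other genes: Rab11a overlaps Gm47308 and Rab43 overlaps Gm45140 on the same strand, and Rab24 overlaps Prelid1, Rab7 overlaps Gm5577 and Rab20 overlaps E230013L22Rik on the opposite strand. The strand setting of the counting is not given in the sources used here, so part of the counts of these members could belong to the neighbour.

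**Figure D1:**
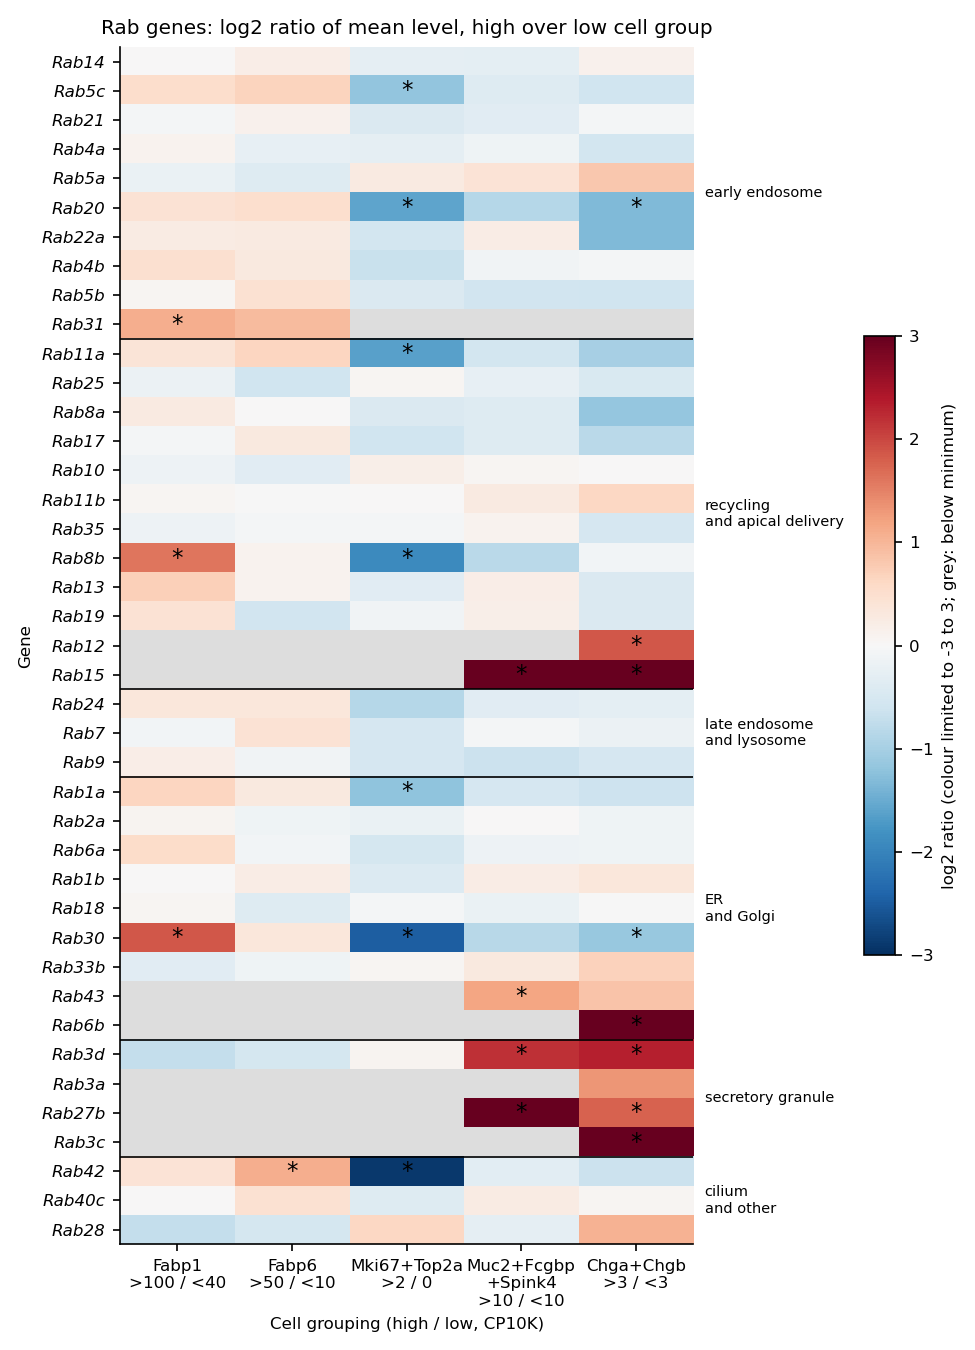
Log2 ratio of the mean level in the high over the low cell group (mean of the set levels, 0.01 added) for each Rab gene at or above the minimum in 1 or more groupings, ordered by role, with colour limited to -3 to 3 and grey where the gene was below the minimum. An asterisk marks a difference of at least 2-fold the same way in both sets, and 7 members were called lower by Mki67+Top2a. The darkest red is at Rab15 and Rab27b for the goblet genes and at Rab3c, Rab15 and Rab6b for the chromogranins.

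With division, members were called in 1 direction only, lower in the dividing cells. Cells with Mki67+Top2a above 2 numbered 450 in set 0 and 394 in set 1, against 4842 and 4147 cells at 0. Among 33 members tested, 7 were called lower (Rab42, Rab30, Rab8b, Rab11a, Rab20, Rab1a and Rab5c) and 0 higher, where 10.2% of 8201 genes tested were lower and 14.8% higher. Rab42, Rab30 and Rab8b reached the minimum only in the non-dividing cells, so their direction was set by it. The median member lay at a log2 ratio of -0.43 and the median gene at 0.11, and 26 of the 33 members lay below 0. All 7 progenitor markers were at 0.1 or above in the dividing cells, with a summed level of 13.1 in set 0 and 14.8 in set 1. Only 6.67% of these cells in set 0 and 4.82% in set 1 had Fabp1 above 100, against 64.3% and 62.6% of the cells at 0, so division and enterocyte maturity cannot be told apart in this grouping. Mesenchymal markers summed to 0.116 and 1.93 in the dividing cells, and the same 7 members were called without cells that carried stromal genes.

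Among the apical and recycling members, Rab11a was at 4.77 in non-dividing and 1.29 in dividing cells of set 0, and at 3.25 and 1.30 in set 1. Its log2 ratio was -1.88 in set 0 and -1.32 in set 1, with the cells in between at 2.78 and 2.18. Thus the sets differed in Rab11a among non-dividing cells and had nearly equal levels among dividing ones. The ratio of summed UMIs gave -1.78 (95% interval -1.84 to -1.71) and -1.22 (-1.29 to -1.15). Rab8b, a relative of Rab8a in apical transport, was at 0.226 against 0.0496 in set 0 and 0.217 against 0.0550 in set 1 (log2 ratio -1.99 and -1.80).

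The relatives of these members stayed nearer to equal levels. Rab25 was at 2.01 in non-dividing and 2.27 in dividing cells of set 0, and at 2.55 and 2.50 in set 1. Rab11b was at 0.623 and 0.603 in set 0 and at 0.616 and 0.651 in set 1. Of the Rab11 group (Rab11a, Rab11b and Rab25), then, Rab11a was the member called in this grouping. Rab8a had a log2 ratio of -0.48 in set 0 and -0.39 in set 1.

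The Golgi members Rab30 and Rab1a were both called lower. Rab30 was at 0.769 in non-dividing and 0.115 in dividing cells of set 0, and at 0.341 and 0.0693 in set 1 (log2 ratio -2.64 and -2.14). Rab1a was at 2.57 against 1.05 and 2.53 against 1.16 (-1.29 and -1.12), while its relative Rab1b had ratios of -0.46 and -0.34. Rab2a (-0.26 and -0.15) and Rab6a, of transport within the Golgi (-0.50 and -0.56), stayed under 2-fold.

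Of the early endosome members, Rab5c was at 2.16 against 0.903 in set 0 and 1.67 against 0.771 in set 1 (log2 ratio -1.25 and -1.11). Its relative Rab5a had ratios on the other side of 0, 0.35 and 0.20, and Rab5b had -0.43 and -0.46. Rab20, of endosomes and phagosomes, was at 0.462 against 0.143 and 0.477 against 0.158 (-1.63 and -1.54). Rab14 (-0.33 and -0.23), Rab4a (-0.29 and -0.27) and Rab4b (-0.84 and -0.48), the last a member of fast recycling like Rab4a, did not reach 2-fold.

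Rab42, a little-studied member, had the most negative ratio of the members tested here. It was at 0.671 in non-dividing and 0.0687 in dividing cells of set 0, and at 0.343 and 0.0498 in set 1 (log2 ratio -3.11 and -2.56). Of the late endosome members, Rab7 had -0.63 and -0.39, Rab9 -0.50 and -0.52, and Rab24 -1.03 in set 0 but -0.67 in set 1. Rab28, a ciliary member, had the reverse sign, 0.58 and 0.66. Within cells with Fabp1 below 40, 5 of the 7 calls were kept and Rab1a and Rab8b were not. Of the cells below this limit, 22.7% in set 0 and 0.0% in set 1 were in the high Fabp6 group. The part of those cells in the result was not tested. Where every cell with Mki67+Top2a above 0 was taken as dividing, 3 calls were left, Rab42, Rab30 and Rab8b, whose direction the minimum set in the main grouping.

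**Figure D2:**
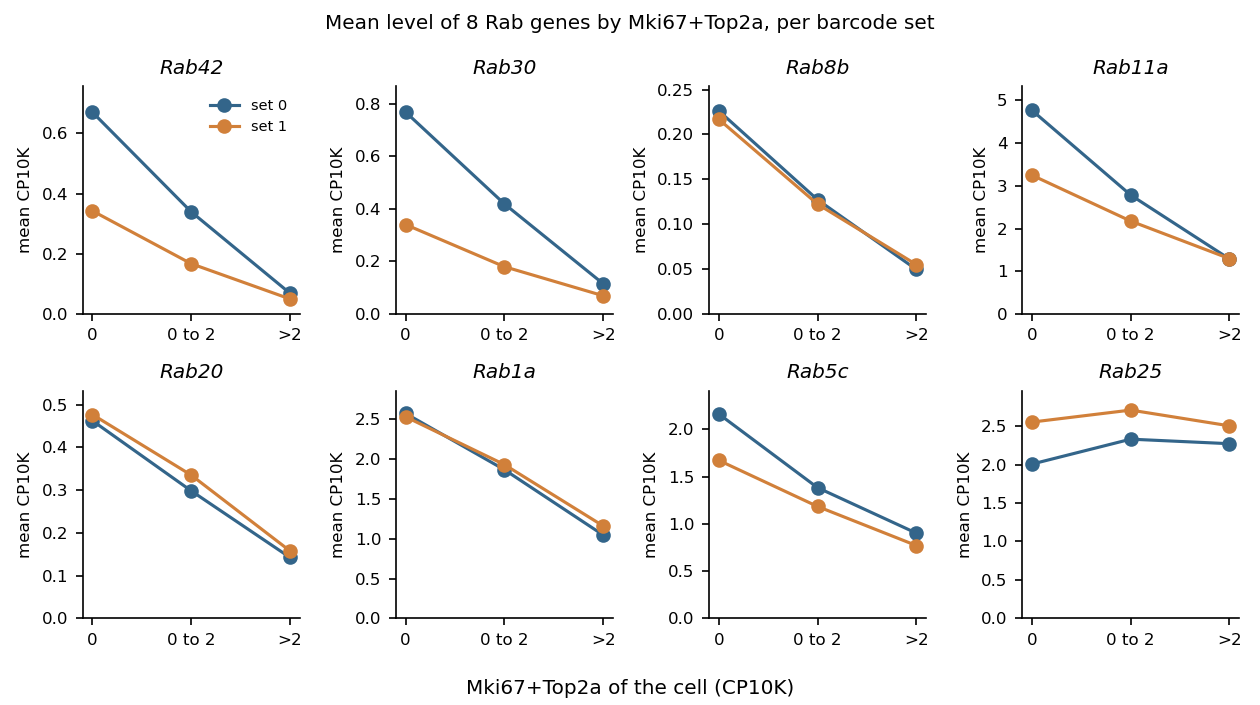
Mean level (CP10K, axis from 0) of the 7 members called lower in dividing cells and of Rab25, by the Mki67+Top2a sum of the cell (0, up to 2, above 2), for set 0 (blue) and set 1 (orange); points are means over cells, without error bars. Each of the 7 steps down in both sets, Rab11a from 4.77 to 1.29 in set 0, and Rab25 stays between 2.01 and 2.71.

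Genes of the Rab machinery were called mostly in the same direction. Of the 29 Rab effectors tested, 7 were called lower and 1 higher, beside 10.2% and 14.8% of all genes. Rabep1, the Rabaptin that binds Rab5 and Rab4, had a log2 ratio of -1.77 in set 0 and -1.46 in set 1. Myo5b, the myosin motor that works with Rab11a and Rab8a at the apical membrane, was at 1.13 in non-dividing and 0.461 in dividing cells of set 0, and at 0.789 and 0.340 in set 1 (-1.27 and -1.19). Ehbp1l1, a Rab8 effector of apical transport, had -1.66 and -1.43, and Vps18, a tether subunit of late endosomes, -1.34 and -1.21. Of 11 GEFs, 2 were lower (Rab3il1 and Dennd1b), and of 18 GAPs 2 were lower (Tbc1d1 and Tbc1d10a). Rab3il1 and some called effectors not named here reached the minimum only in the non-dividing cells, so their direction was set by it. None of the 6 genes of Rab prenylation and extraction tested was called here or in any of the other groupings.

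With Fabp1 the members moved less. Cells above 100 CP10K numbered 3354 in set 0 and 2786 in set 1, and cells below 40 numbered 2094 and 1770. Of 34 members tested, 3 were called higher in the Fabp1-high cells (Rab30, Rab8b and Rab31) and 0 lower, beside 3.55% higher and 10.6% lower of 7857 genes. The median log2 ratio was 0.10 for the members and -0.20 for all genes tested. The 9 enterocyte markers summed to 157 in the Fabp1-low and 672 in the Fabp1-high cells of set 0, and to 144 and 627 in set 1. In the Fabp1-low group 19.1% and 19.8% of cells had Mki67+Top2a above 2, and 3.92% and 2.49% had high goblet genes. Cells of the high Fabp6 group made up 22.7% of the Fabp1-low group in set 0 and 0.0% in set 1. Among the Fabp1-high cells they made up 13.3% and 0.969%. How much these cells change the Fabp1 ratios was not tested. Of the 3 calls, Rab31 was lost once dividing and secretory cells were left out.

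Rab30 was higher at each step of Fabp1. It was at 0.252, 0.497 and 0.977 in the low, middle and high cells of set 0, and at 0.115, 0.299 and 0.421 in set 1. Both sets thus kept the order of the 3 groups, at lower levels in set 1. Its log2 ratio was 1.91 in set 0 and 1.78 in set 1. On summed UMIs it was 1.98 (95% interval 1.89 to 2.07) and 1.77 (1.63 to 1.91).

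Rab8b was at 0.0986, 0.173 and 0.271 in set 0, and at 0.0708, 0.130 and 0.285 in set 1 (log2 ratio 1.37 and 1.87). Rab31, which moves cargo from the Golgi to endosomes, was at 0.0526, 0.0929 and 0.122 in set 0, and at 0.0317, 0.0329 and 0.0824 in set 1 (1.07 and 1.15). Both Rab8b and Rab31 reached the minimum only in the Fabp1-high group, so their direction was set by that minimum, and Rab30 was the call free of it. Rab8a, by contrast, had ratios of 0.30 and 0.22.

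Most members had near-equal levels in both Fabp1 groups. Rab1a (0.55 and 0.74), Rab13, of tight junction traffic (0.82 and 0.61), Rab5c (0.52 and 0.53) and Rab11a (0.41 and 0.37) had positive log2 ratios under 2-fold. Rab14 (0.03 and -0.03), Rab7 (-0.05 and -0.12), Rab1b (-0.05 and 0.05) and Rab11b (0.08 and 0.07) lay near 0. Rab25 (-0.18 and -0.17), Rab28 (-0.59 and -0.84) and the granule member Rab3d (-0.81 and -0.63) lay below. None of the GEFs (12 tested), GAPs (18) or effectors (31) was called by Fabp1.

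**Figure D3:**
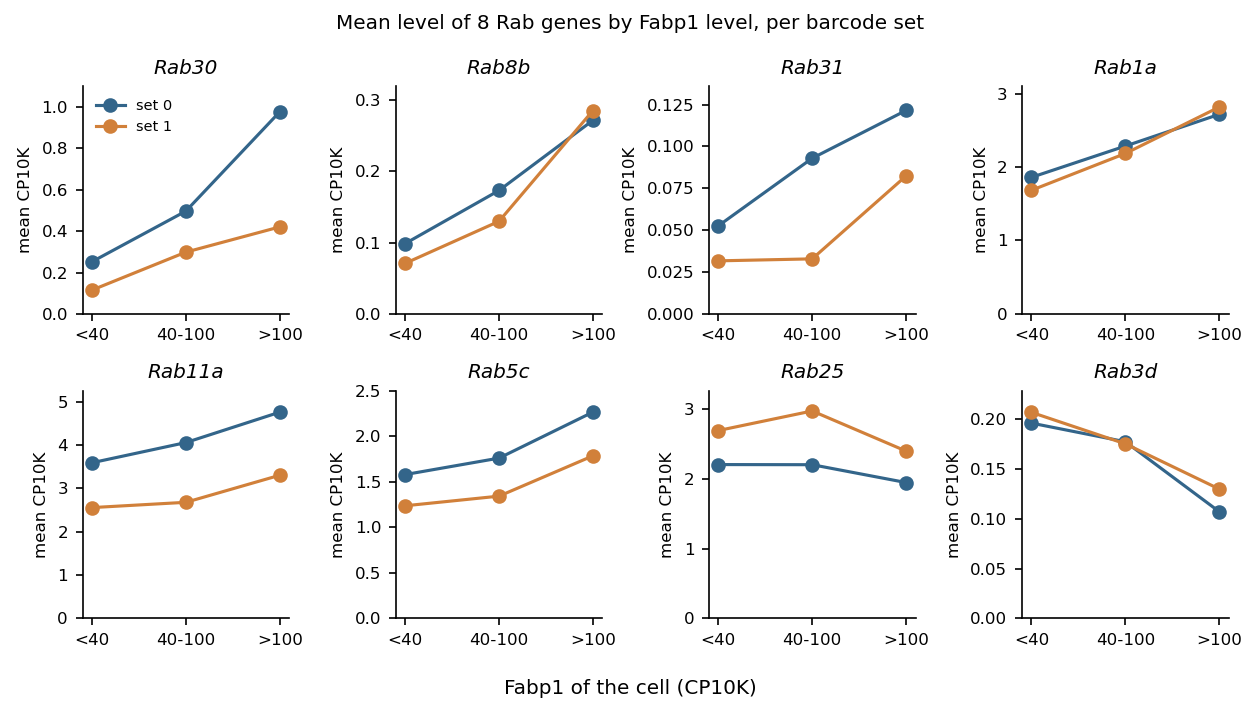
Mean level (CP10K, axis from 0) of 8 members by the Fabp1 level of the cell (below 40, 40 to 100, above 100), for set 0 (blue) and set 1 (orange); points are means over cells, without error bars. Rab30 goes from 0.252 to 0.977 in set 0 and from 0.115 to 0.421 in set 1, while Rab25 and Rab3d are lowest in the Fabp1-high cells.

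For Fabp6 the high group was unequal between the sets, with 1108 cells in set 0 and 27 in set 1, and most of what follows rests on set 0. With shared barcodes kept, set 1 had 206 such cells, so most of its Fabp6-high cells carried a barcode also found in set 0. Rab42 was called with them as well, but the cells added share their barcodes with set 0 and may not be a separate check. Of 34 members tested, 1 was called higher, Rab42, and 0 lower, beside 1.41% and 4.08% of 7650 genes. Rab42 was at 0.439, 0.862 and 0.970 from Fabp6-low to Fabp6-high cells of set 0, and at 0.287, 0.546 and 0.588 in set 1. Its log2 ratio was 1.13 and 1.01, only just past 2-fold in set 1, where the UMI ratio was 0.88 (95% interval 0.36 to 1.36). The call was lost on summed UMIs, and also among cells with Fabp1 of 40 or more that were neither dividing nor secretory.

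Rab11a was higher with Fabp6 without reaching 2-fold, at 3.55, 5.55 and 6.22 in set 0 and at 2.91, 4.32 and 3.96 in set 1. Rab25 went the other way, at 2.21, 1.79 and 1.68 in set 0 and 2.60, 2.07 and 1.48 in set 1. The close relatives Rab11a and Rab25 therefore had log2 ratios of opposite sign (0.81 and 0.44 against -0.39 and -0.81). Rab7 (0.44 and 0.42), Rab5c (0.48 and 0.85) and Rab17, of transcytosis in polarized cells (0.39 and 0.18), also had positive ratios. Of the machinery, 1 gene was called, Rab3il1, a GEF of Rab8, with 1.31 and 1.47.

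Secretory granule members were among the calls, beside members of other roles, where the goblet genes or the chromogranins were high. Cells with Muc2+Fcgbp+Spink4 above 10 numbered 127 in set 0 and 55 in set 1. Of 36 members tested, 4 were called higher (Rab15, Rab27b, Rab3d and Rab43) and 0 lower, beside 7.23% and 0.226% of 8419 genes. Of the 9 goblet and Paneth markers, 8 were at 0.1 or above, with a summed level of 109 and 156. The enterocyte markers summed to 287 and 168 in the same cells and the enteroendocrine markers to 24.9 and 15.6. The same 4 calls were kept among cells with Chga+Chgb below 3, and also among cells with Fabp1 below 40, where Rab27a was gained. The chromogranin limit left 125 of the 127 goblet-high cells in set 0 and all 55 in set 1, so it could hardly change the calls. The part of these markers in the levels themselves was not tested. Median depth was 23926 UMIs in set 0 and 11059 in set 1.

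Rab27b, which docks granules at the plasma membrane, was at 0.0285 in goblet-low and 0.415 in goblet-high cells of set 0, and at 0.0287 and 0.744 in set 1. The high values rest on 78 UMIs in 52 cells and 50 UMIs in 28 cells. On summed UMIs the log2 ratio was 2.87 (95% interval 2.51 to 3.22) and 4.33 (3.87 to 4.76). With each cell thinned to 8000 UMIs, which left out 16 and 11 shallower goblet-high cells, 13.5% and 36.4% of goblet-high cells had a Rab27b UMI. In Fabp1-high cells with low secretory sums the thinned share was 1.18% and 1.05%.

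Rab3d, of zymogen and mucin granules, was at 0.135 and 0.567 in set 0 and at 0.154 and 0.825 in set 1, from 118 and 55 UMIs in the goblet-high cells. Its log2 ratio of mean levels was 1.99 and 2.35, while that of summed UMIs was 1.30 (1.02 to 1.56) and 2.02 (1.6 to 2.40). Thinned shares were 26.1% and 31.8% in goblet-high cells, against 8.17% and 9.53% in Fabp1-high cells with low secretory sums. How much of the latter is free RNA was not tested. The unthinned shares were 56.7% and 52.7%, against 25.2% and 27.4%.

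Rab15, known from receptor recycling, was scarce outside the secretory cells. It was at 0.00674 and 0.241 in set 0 and at 0.00412 and 0.546 in set 1, from 46 UMIs in 33 cells and 31 UMIs in 20 cells. On summed UMIs its log2 ratio was 4.75 (4.19 to 5.30) and 7.06 (6.30 to 7.81). In Fabp1-high cells with low secretory sums 0 of 3306 thinned cells of set 0 had a Rab15 UMI, and 0.0362% did in set 1. The 0 allows a share of cells with a UMI of up to 0.112% at the thinned depth only (exact binomial 95% limit). At full depth the shares were 0.151% and 0.144%. In dividing cells the thinned shares were 2.02% and 3.07%. Of the dividing cells, 6.0% in set 0 and 3.55% in set 1 had high goblet genes. In the goblet-high cells the thinned shares were 14.4% and 29.5%.

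Rab43, of the Golgi, was the weakest of the 4 calls. It was at 0.0695 and 0.151 in set 0 and 0.0564 and 0.163 in set 1 (log2 ratio 1.02 and 1.38), from 34 and 9 UMIs. The call was lost when only cells of at least 8000 UMIs or summed UMIs were used. Rab15, Rab27b and Rab43 reached the minimum only in the goblet-high cells, so their direction was set by it. Rab27a, the relative of Rab27b, stayed below the minimum in the main grouping, at 0.111 and 0.0531 in goblet-high cells from 16 and 5 UMIs.

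Apart from Rab15 and Rab43, members of the constitutive routes did not pass 2-fold in both sets in the main grouping. Rab11a was at 4.31 in goblet-low and 3.39 in goblet-high cells of set 0 and at 2.99 and 1.54 in set 1. Rab25 (log2 ratio -0.22 and -0.27), Rab1a (-0.37 and -0.67), Rab7 (-0.09 and -0.03) and Rab2a (-0.01 and 0.05) were nearer to equal. Rab8b had -0.64 and -1.0 and Rab20 -0.68 and -1.06. With shared barcodes left out of both sets, Rab8b and Rab20 were called lower, and Rab27a was gained.

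Of 34 Rab effectors tested, 5 were higher in goblet-high cells and 0 lower, beside 7.23% and 0.226% of all genes. Sytl2, a synaptotagmin-like protein that binds Rab27, was at 0.00219 and 0.958 in set 0 and at 0.00175 and 1.23 in set 1. Myo5c, a myosin of exocrine granules, had a log2 ratio of 3.85 and 3.23, Mlph, a Rab27 effector that binds myosin, 1.88 and 1.90, and Mical1 1.52 and 2.76. Of 24 GAPs, 5 were higher, with Sgsm3 at 2.35 and 2.49, and of 17 GEFs 0 were called. The 5 effectors and 5 GAPs called reached the minimum only in the goblet-high cells, so their direction was set by it.

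The cells with Chga+Chgb above 3 were few, 25 in set 0 and 21 in set 1. All 11 enteroendocrine markers were at 0.1 or above there, with a summed level of 368 and 503. Of 40 members tested, 6 were called higher (Rab3c, Rab15, Rab6b, Rab3d, Rab12 and Rab27b) and 2 lower (Rab30 and Rab20). Of 9261 genes, 15.9% and 4.25% were called, so the share of members called higher was near that of all genes. Each call rests on at most 22 UMIs per set in the high group, and all of the 6 except Rab3d reached the minimum only there. Goblet and Paneth markers summed to 20.5 and 9.37 there, against 2.73 and 2.06 in the chromogranin-low cells. Among cells with Muc2+Fcgbp+Spink4 below 10, 7 of the 8 calls were kept and Rab30 was not. That limit left 23 of the 25 chromogranin-high cells in set 0 and all 21 in set 1. The part of these markers in the levels themselves was not tested. Of the 6 mesenchymal markers only Vim was above 0 in the chromogranin-high cells (2.72 and 0.472, against 0.0226 and 0.0404). Median depth was 10674 UMIs in set 0 and 19967 in set 1, against 23664 and 22377 in the chromogranin-low cells. Stmn2 and Tubb3 together averaged 1.73 and 0.107, against 0.00371 and 0.0140. In 2 cells of set 0 and 0 of set 1 the sum of the neuronal genes Stmn2 and Tubb3 was above 3. Without those cells, a choice made after seeing the data, 6 members were called, Rab6b and Rab30 no longer among them.

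Rab3c, of regulated exocytosis in neuroendocrine cells, was at 0.0146 in chromogranin-low and 0.564 in chromogranin-high cells of set 0, and at 0.00646 and 0.486 in set 1. The high levels came from 18 UMIs in 7 cells and 9 UMIs in 4 cells, and 55.6% of those in set 1 were in 1 cell. On summed UMIs the log2 ratio was 5.88 (5.07 to 6.62) and 6.40 (5.15 to 7.49). In goblet-high cells Rab3c was at 0.0193 and 0.00668, from 4 and 1 UMIs. After thinning, 11.1% of 18 cells in set 0 and 0 of 14 in set 1 had a Rab3c UMI, the latter allowing up to 23.2% at the thinned depth. At full depth, with the shallow cells, 28.0% and 19.0% of the cells had one.

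Rab3d was at 0.141 and 0.840 in set 0 and at 0.159 and 0.766 in set 1, from 22 and 15 UMIs. On summed UMIs its log2 ratio was 1.59 (0.92 to 2.20) and 1.28 (0.44 to 2.01). Rab3d was thus the granule member called in both secretory groups together with Rab27b, but among cells of at least 8000 UMIs only Rab3c and Rab15 were still called with the chromogranins. Rab15 was at 0.00977 and 0.480 in set 0 and at 0.00923 and 0.183 in set 1, from 13 and 4 UMIs.

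The other calls rest on fewer counts. Rab27b had 4 and 5 UMIs, with a UMI log2 ratio of 1.16 (-0.72 to 2.52) in set 0, and Rab12, of recycling to lysosomes, had 6 and 2, with 0.44 (-2.61 to 2.30) in set 1. Rab6b, the neuronal relative of Rab6a, had 10 and 3 UMIs, and 9 of the 10 lay in the cells high in Stmn2 and Tubb3. Rab3a, the synaptic vesicle member, was not called (log2 ratio 1.98 and 0.15), and 20 of its 23 UMIs in set 0 lay in the same cells. Rab30 was at 0.683 and 0.322 in set 0 and at 0.302 and 0.113 in set 1, and Rab20 at 0.421 and 0.146 and at 0.437 and 0.183. For both members the UMI interval of set 1 reached 0.03 above equal levels. Both calls were lost with all cells kept, where Rab27a and Rab3a were gained. With shared barcodes left out of both sets, Rab30 and Rab6b were lost. Among cells with Fabp1 below 40, Rab30 and Rab27b were lost, and Rab11a and Rab8a were gained.

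Of the 37 effectors tested with the chromogranins, 7 were higher and 1 lower, beside 15.9% and 4.25% of all genes, so the share called higher was near that of all genes. Rph3al, a Rab3 and Rab27 effector of endocrine granules, was at 0.128 and 0.784 in set 0 and at 0.148 and 0.613 in set 1. Rims2, a Rab3 effector of docking sites, had a log2 ratio of 4.09 and 2.73. Of 16 GEFs, 3 were higher, among them Madd, the GEF of Rab3 and Rab27 (1.29 and 3.72), and of 23 GAPs 4 were higher, among them Rab3gap1, of the Rab3 GAP complex (2.34 and 1.09). These shares, too, were near that of all genes. Rims2, Madd and some called genes not named here reached the minimum only in the chromogranin-high cells, so their direction was set by it.

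**Figure D4:**
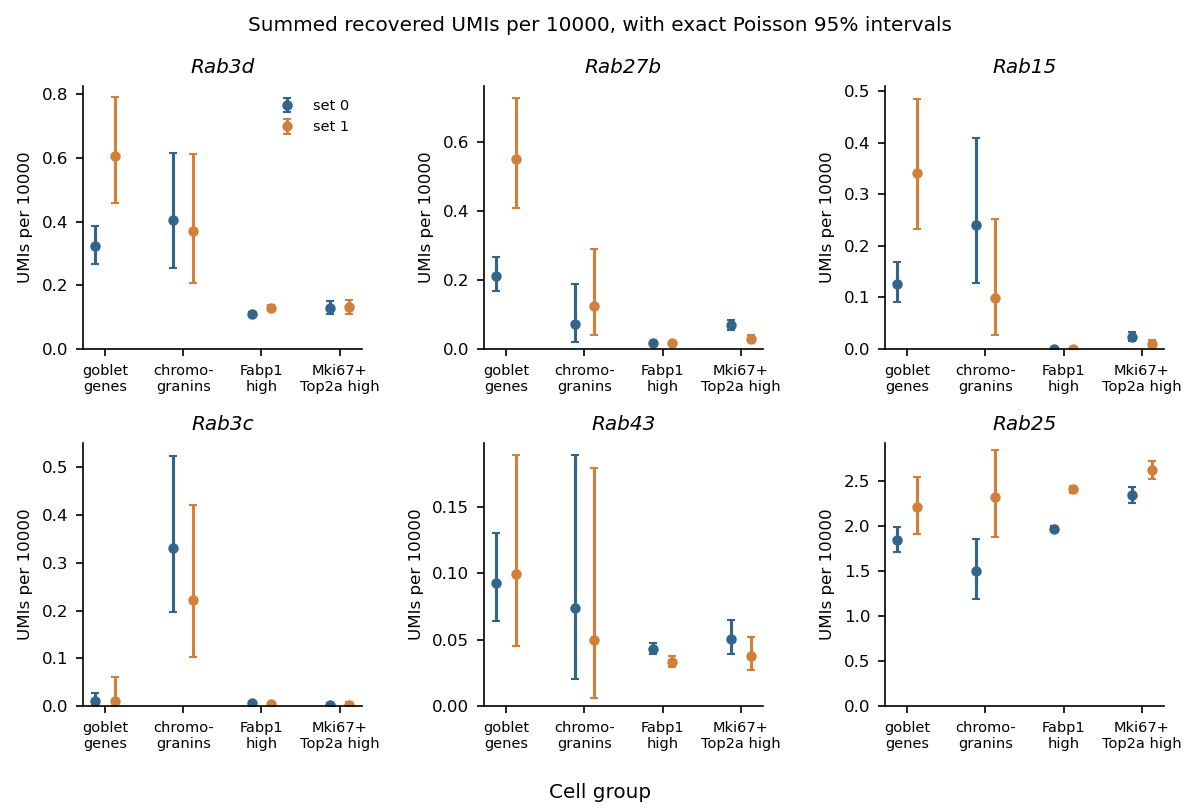
Summed recovered UMIs per 10000 (axis from 0) of 6 members in 4 cell groups (goblet genes above 10, chromogranins above 3, Fabp1 above 100 and Mki67+Top2a above 2, the last pair with low secretory sums), for set 0 (blue) and set 1 (orange), with exact Poisson 95% intervals for counting error only. Rab27b and Rab15 are at 0.213 and 0.126 in goblet-gene cells of set 0 against 0.0161 and 0.000627 in Fabp1-high cells, Rab3c is high with the chromogranins, and Rab25 lies between 1.5 and 2.62 in all groups.

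Between the sets the members were mostly close. In Fabp1-high cells, of 33 members tested, 1 was over 2-fold lower in set 1 and 0 higher, beside 1.51% and 0.860% of 7093 genes. That member was Rab30, at 0.977 in set 0 and 0.421 in set 1 (log2 ratio -1.20, with a UMI interval of -1.23 to -1.12). Fabp6, which also differed, averaged 19.5 and 2.61 in these cells. Among Fabp1-high cells with Fabp6 below 10, Rab30 was at 0.995 and 0.414, so the difference was as large there. In the cells left out of set 1 because their barcode was shared, Rab30 was at 0.891, near the 0.841 of the same barcodes in set 0. With these cells kept, Rab30 no longer passed 2-fold.

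In Fabp1-low cells 2 of 32 members were over 2-fold lower in set 1 (1.19% of 7873 genes, with 0.673% higher), Rab30 (0.252 and 0.115) and Rab42 (0.498 and 0.237). In cells between the Fabp1 limits 1 of 33 was lower (2.27% of 7543 genes, with 0.981% higher), Rab42, at 0.657 and 0.228. Fabp6, with which Rab42 was called, averaged 33.7 in set 0 and 1.05 in set 1 among Fabp1-low cells. Between the limits it averaged 56.1 and 1.11. How much of the Rab42 difference goes with Fabp6 was not tested. In dividing cells 0 of 31 passed 2-fold either way, beside 0.640% lower and 0.832% higher of 7815 genes. Rab11a, at 4.76 and 3.31 in Fabp1-high cells, had -0.53, and Rab25, at 1.95 and 2.40, had the opposite sign. In goblet-high cells 4 of 37 members were lower in set 1 (5.34% of 8789 genes), Rab30, Rab42, Rab11a and Rab5b. Rab15 was the 1 member higher (7.24% of the genes). Rab5b rested on 43 and 6 UMIs, with a UMI interval of -2.35 to 0.41 that covers equal levels. Rab30 and Rab42 had 9 and 15 UMIs in set 1. Fabp6 averaged 25.7 in set 0 and 2.75 in set 1 among these goblet-high cells. With the chromogranins 7 of 43 lay each way, beside 19.1% higher and 16.9% lower of 10224 genes, too few cells to order the sets. Each set is 1 library, so differences between the sets have no replicate check.

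**Figure D5:**
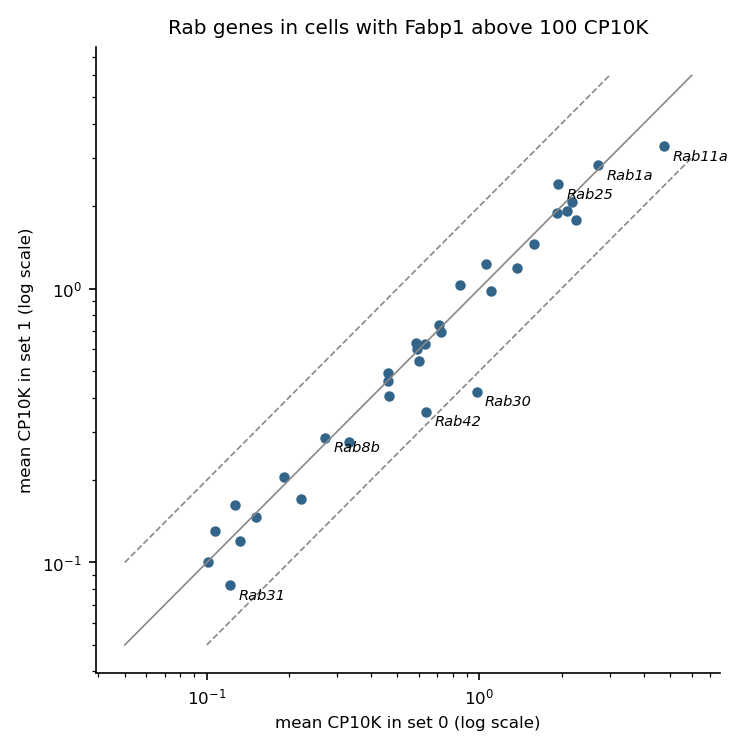
Mean level (CP10K, log axes) in set 1 against set 0 for the 33 Rab genes tested in cells with Fabp1 above 100; the solid line marks equal levels and the dashed lines 2-fold differences. Rab30 (0.977 and 0.421) lies beyond the lower dashed line, Rab42 and Rab11a lie inside it, and Rab25 lies above the solid line.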

How the data were processed

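The 54 members and the lists of roles, machinery and markers were chosen with earlier results of these data known. The deposited table holds linear signal per cell and gene, which the authors scaled to 10000 per cell (from the values: each row sums to 10000). The submitters' processing notes name Salmon 0.14.1 with alevin, Scanpy 1.6.0 and GRCm38/mm10. UMIs were recovered by dividing each value by the most frequent non-zero value of its cell, and a median of 94.9% of values per cell came out whole within 0.01 (lowest cell 84.3%). Recovered depth ran from 1152 to 250630 UMIs. Doublets were not called, and no cell was removed other than the shared barcodes. The list of neural markers is not reported here. Means were taken per set, and the call rule (2-fold, minimum 0.1, 0.01 added) was run over all 25663 genes with Python 3.11.15, NumPy 2.4.6 and SciPy 1.17.1, and checked on simulated data. Intervals were exact Poisson (levels), conditional binomial (UMI ratios) and Clopper-Pearson (shares), at 95%. The limits for Mki67+Top2a were set here. Members called in a grouping, the 10 of highest level and their close relatives are named with values, and of each machinery list at most 4 called genes per grouping, by the larger mean.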

Additional observations from a re-analysis of the deposited data

Results flagged for a closer look

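Rab8b, a relative of Rab8a in apical transport, went opposite ways in the sets with the chromogranins. Its log2 ratio was -1.39 in set 0, from 0.203 to 0.0714 CP10K, and 0.62 in set 1, from 0.193 to 0.303. The chromogranin-high levels rest on 5 and 6 UMIs, and the difference between the sets was not tested.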

How the results depend on the processing

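No paired analysis was possible because neither set is tied to a genotype and no result comes from a test. Of 326 values of called members under an alternative, 270 moved by no more than a limit, 56 moved by more and 0 changed sign. The limit was the gap between the main log2 ratios of set 0 and set 1, divided by the square root of 2. It is wider where the sets differ more, so such members pass it more easily. Changing the minimum or the fold limit leaves a log2 ratio as it is. The values under those settings are among the 270 and could not move. The counts of members called were 3 for Fabp1, 1 for Fabp6, 7 for Mki67+Top2a, 4 for the goblet genes and 8 for the chromogranins, and 38 machinery calls. A minimum of 0.5 gave 1 for Fabp1, 2 for the goblet genes, 2 for the chromogranins and 12 for the machinery. No minimum gave 5 for Fabp1, 2 for Fabp6 and 2 between the sets in Fabp1-high cells (against 1). Adding 0.1 in place of 0.01 gave 1 for Fabp1, 0 for Fabp6, 3 for the chromogranins and 18 for the machinery. Summed UMIs gave 0 for Fabp6, 5 for the chromogranins and 21 for the machinery. A limit of 1.5-fold gave 6 for Fabp1, 2 for Fabp6, 14 for the chromogranins, 83 for the machinery and 2 between the sets. Set 1 alone gave 3 for Fabp6, 9 for the goblet genes, 16 for the chromogranins and 80 for the machinery, and set 0 alone 14 for the chromogranins. Leaving out shared barcodes in both sets gave 7 for the goblet genes, and keeping all cells gave 0 between the sets. At least 8000 UMIs gave 2 for the chromogranins. Counting every cell above 0 as dividing gave 3, and cells with Fabp1 of 40 or more, neither dividing nor secretory, gave 0 for Fabp6. In each case the cause was not tested. Scaling without mitochondrial, ribosomal, haemoglobin and grouping genes moved the median of all genes from -0.20 to -0.31 with Fabp1 and from 0.11 to 0.25 with Mki67+Top2a, where Rab5c was lost and Rab31 gained. The chromogranin results are limited by 46 cells, and those of Fabp6 in set 1 by 27.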
